A study of Danio rerio with 6 samples.

Results

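The 4 genes described here are the 2 Nodal ligands ndr1 (squint, ENSDARG00000057096) and ndr2 (cyclops, ENSDARG00000101279) and the 2 Lefty inhibitors lft1 (ENSDARG00000019920) and lft2 (ENSDARG00000044059) of the zebrafish. They were taken by gene identifier and are 4 of the 32266 genes listed for each library. The RNA came from whole embryos of the Tubingen strain at 50% epiboly, the stage at which gastrulation begins, and each of the 6 libraries was made from a pool of 25 embryos. MZsmad4a embryos (3 libraries) lacked both maternal and zygotic Smad4a, because mothers and fathers were homozygous for a CRISPR/Cas9 frameshift deletion in smad4a. Wild-type (WT) embryos of the same strain, stage and pool size formed the other 3 libraries, which like the mutant ones are biological replicates in the submitters' labels.

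Nodal ligands are secreted TGF-β family signals, made in the yolk syncytial layer and the embryonic margin, that induce mesoderm and endoderm. They act through activin receptors and the co-receptor Tdgf1 (One-eyed pinhead) to phosphorylate Smad2. Classically, phosphorylated Smad2 joins Smad4, and the complex gathers in the nucleus and is brought to target genes by partners such as Foxh1 and Mixl1. Nodal signalling switches on its own ligand genes and also lft1 and lft2, whose products spread further than the ligands and keep them from their receptors, closing a negative feedback loop. The comparison of the genotypes asks how the transcripts of both arms of this loop stood in embryos without Smad4a.

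Totals of expected counts were 18138714 to 19900859 in the MZsmad4a libraries and 9807865 to 20833491 in the WT libraries, WT replicate 1 being the shallowest. A floor of 3 counts corresponded to 0.143 to 0.283 CPM (counts scaled to library size) over the 6 libraries. The transcript of the targeted gene separated the labels: smad4a had 13.1, 15.3 and 14.6 CPM in MZsmad4a embryos, against 54.7, 62.3 and 60.8 CPM in WT embryos, a log2 fold change of -2.05 (SE 0.13, edgeR quasi-likelihood test, adjusted p = 0.000546). All 4 ligand and inhibitor genes passed the filter on low counts that left 15720 genes for testing.

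The inhibitor lft2 was the member that stood lowest in the mutants relative to WT, at 0.503 times the WT level. In TPM, which scales a level to the library and to transcript length so that genes can be set against each other, lft2 reached 9.58, 10.64 and 8.01 in MZsmad4a embryos, against 21.47, 21.11 and 17.56 in WT embryos. Every mutant library lay below every WT library, with a gap between 10.64 TPM in the highest mutant and 17.56 TPM in the lowest WT library. These levels rested on 114, 128 and 105 counts in MZsmad4a and on 138, 291 and 205 counts in WT libraries. The means were 9.41 ± 1.32 TPM in MZsmad4a and 20.05 ± 2.16 TPM in WT embryos (SD, n = 3 each). Their ratio is 0.469, and TPM is not TMM-scaled, unlike the 0.503 above. The log2 fold change of lft2 was -0.99 (SE 0.18, 95% interval -1.41 to -0.57, edgeR adjusted p = 0.0299 over all tested genes). That adjusted p is above the threshold of 0.01 used here, and lft2 ranked 327th of 15720 genes by p. The study set that level for DESeq2, the tool it used. On the same counts DESeq2 put lft2 at -0.98 on the log2 scale (adjusted p = 0.000484), so the tool decides whether lft2 passes 0.01. DESeq2 called 1.77% of its tested genes higher and 1.92% lower at that level. In RNA from whole embryos, fewer cells that express a gene and less RNA per cell cannot be told apart.

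The other inhibitor, lft1, was the most abundant of the 4 transcripts, above 82.3 to 88.0% of all detected genes in each library. It had 35.54, 58.83 and 57.89 TPM in MZsmad4a embryos, against 40.82, 38.79 and 49.75 TPM in WT embryos. The mutant libraries spanned both sides of the WT range, replicate 1 below it and replicates 2 and 3 above it. Means were 50.8 ± 13.2 TPM in MZsmad4a and 43.1 ± 5.83 TPM in WT embryos (SD, n = 3 each). The log2 fold change of lft1 was 0.33 (SE 0.21, 95% interval -0.15 to 0.82, edgeR adjusted p = 0.476), an interval that runs between 0.903 and 1.76 times the WT level.

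Among the ligands, ndr1 had the lowest level of the 4 genes in every library. Its levels were 2.15, 4.60 and 5.20 TPM in MZsmad4a embryos, against 2.38, 2.45 and 3.02 TPM in WT embryos. In TPM, MZsmad4a replicate 1 was the lowest of all 6 libraries while the other mutant libraries were the highest, so the genotypes overlapped. Only 32, 69 and 85 counts stood behind the mutant values and 19, 42 and 44 behind the WT values. The 19 counts of WT replicate 1 allow 1.43 to 3.72 TPM by an exact Poisson interval, which covers counting error only. The log2 fold change of ndr1 was 0.70 (SE 0.37, 95% interval -0.14 to 1.54, edgeR adjusted p = 0.376). Without MZsmad4a replicate 1 it was 0.99 (edgeR adjusted p = 0.145).

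The second ligand, ndr2, had 5.0, 8.33 and 9.59 TPM in MZsmad4a embryos, against 11.27, 11.60 and 8.36 TPM in WT embryos. The groups overlapped through MZsmad4a replicate 3 and WT replicate 3, and MZsmad4a replicate 1 was again the lowest library. Means were 7.64 ± 2.37 TPM in MZsmad4a and 10.4 ± 1.78 TPM in WT embryos (SD, n = 3 each). The log2 fold change of ndr2 was -0.34 (SE 0.28, 95% interval -0.98 to 0.30, edgeR adjusted p = 0.591). Without MZsmad4a replicate 1 it was -0.11.

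**Figure D1:**
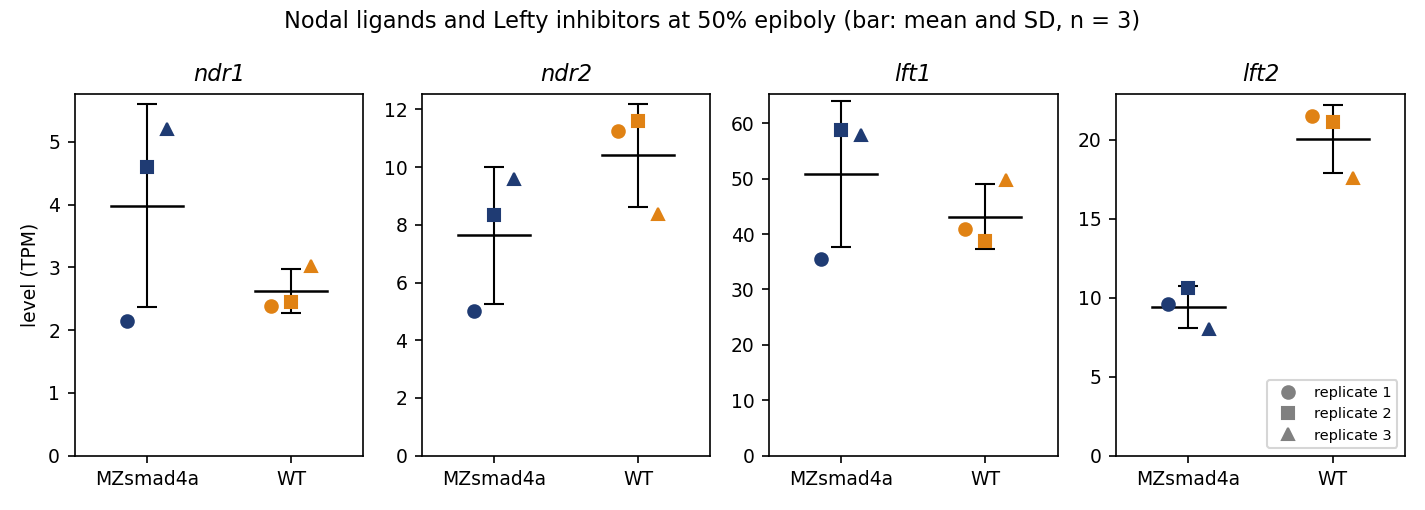
Level in TPM of ndr1, ndr2, lft1 and lft2 in each library, MZsmad4a left of WT, each panel with its own axis from 0. Symbols mark the replicate number, horizontal bars the mean and vertical bars the SD of 3 libraries. The genotypes are apart for lft2, where the highest mutant library has 10.64 TPM and the lowest WT library 17.56 TPM, and overlap for the other 3 genes.

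Across the 4 genes, 0 passed an adjusted p of 0.01 in the edgeR test, beside 0.712% of all tested genes. DESeq2 called 1 of 4 at that level, beside 3.69% of all genes it tested. An unadjusted edgeR p under 0.05 was found for 1 of 4, beside 17.5% of all tested genes. In both cases the gene was lft2. At an edgeR adjusted p of 0.05, 1 of 4 passed, which was lft2, beside 1.26% of all genes higher, 1.67% lower and 2.93% in either direction. That call of lft2 was lost when any library but WT replicate 3 was left out (edgeR adjusted p 0.0676 to 0.108) and with a replicate block (0.0526). The genotypes did not overlap for 1 of 4, again lft2, beside 23.6% of all genes. The direction of the fitted change divided each pair: ndr1 and lft1 had positive values and ndr2 and lft2 negative values, of which only that of lft2 had an interval clear of 0. The order of the levels per length was lft1, lft2, ndr2, ndr1 in 5 of the 6 libraries. In MZsmad4a replicate 3 ndr2 (9.59 TPM) stood above lft2 (8.01 TPM).

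The balance of ligand to inhibitor transcripts did not separate the genotypes. Summed ligand transcripts (ndr1 and ndr2) came to 7.15, 12.93 and 14.79 TPM in MZsmad4a embryos, against 13.65, 14.05 and 11.38 TPM in WT embryos. Summed inhibitor transcripts (lft1 and lft2) came to 45.12, 69.47 and 65.9 TPM in MZsmad4a embryos, against 62.29, 59.9 and 67.31 TPM in WT embryos. MZsmad4a replicate 1 had the smallest sum in both cases, and the remaining mutant libraries lay in or just outside the WT range. The ratio of ligand to inhibitor was 0.159, 0.186 and 0.224 in MZsmad4a libraries, against 0.219, 0.235 and 0.169 in WT libraries, so inhibitor transcripts outnumbered ligand transcripts several times over in every pool. The genotypes overlapped, with a difference of -0.13 on the log2 scale (MZsmad4a minus WT, exact two-sided permutation test p = 0.6). Without MZsmad4a replicate 1 the difference was -0.01.

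Within each arm, the split between the paralogues did not overlap between the genotypes. No share over other pairs of genes is set beside this, and 23.6% of all tested genes taken singly did not overlap. lft2 made up 21.2, 15.3 and 12.2% of the summed lft1 and lft2 level (TPM) in MZsmad4a embryos, against 34.5, 35.2 and 26.1% in WT embryos. The means were 16.2 ± 4.61% in MZsmad4a and 31.9 ± 5.08% in WT embryos (SD, n = 3 each). WT replicate 3 was the WT library nearest to the mutants, and MZsmad4a replicate 1 the mutant library nearest to WT. As a share of counts, lft2 was 20.3% in MZsmad4a replicate 1 (95% Wilson interval 17.2 to 23.9%), against 25.0% in WT replicate 3 (22.2 to 28.1%), so the intervals of these nearest libraries overlapped. The intervals of the other libraries were apart: 12.4 to 17.1% and 9.66 to 13.8% in MZsmad4a replicates 2 and 3, against 28.9 to 37.9% and 30.9 to 37.2% in WT replicates 1 and 2.

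In the ligand arm, ndr1 made up 30.1, 35.6 and 35.2% of the summed ndr1 and ndr2 level (TPM) in MZsmad4a embryos, against 17.4, 17.4 and 26.5% in WT embryos. The means were 33.6 ± 3.07% in MZsmad4a and 20.5 ± 5.25% in WT embryos (SD, n = 3 each). WT replicate 3 was again the WT library nearest to the mutants. As a share of counts, ndr1 was 31.4% in MZsmad4a replicate 1 (95% Wilson interval 23.2 to 40.9%), against 27.7% in WT replicate 3 (21.3 to 35.1%). These intervals overlapped widely. That of WT replicate 3 also overlapped those of MZsmad4a replicates 2 and 3, which began at 30.3 and 30.6%. That of MZsmad4a replicate 1 also overlapped those of WT replicates 1 and 2, which ended at 26.8 and 23.8%. Only MZsmad4a replicates 2 and 3 were apart from WT replicates 1 and 2. By counting error, this split was less well resolved than that of lft2.

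**Figure D2:**
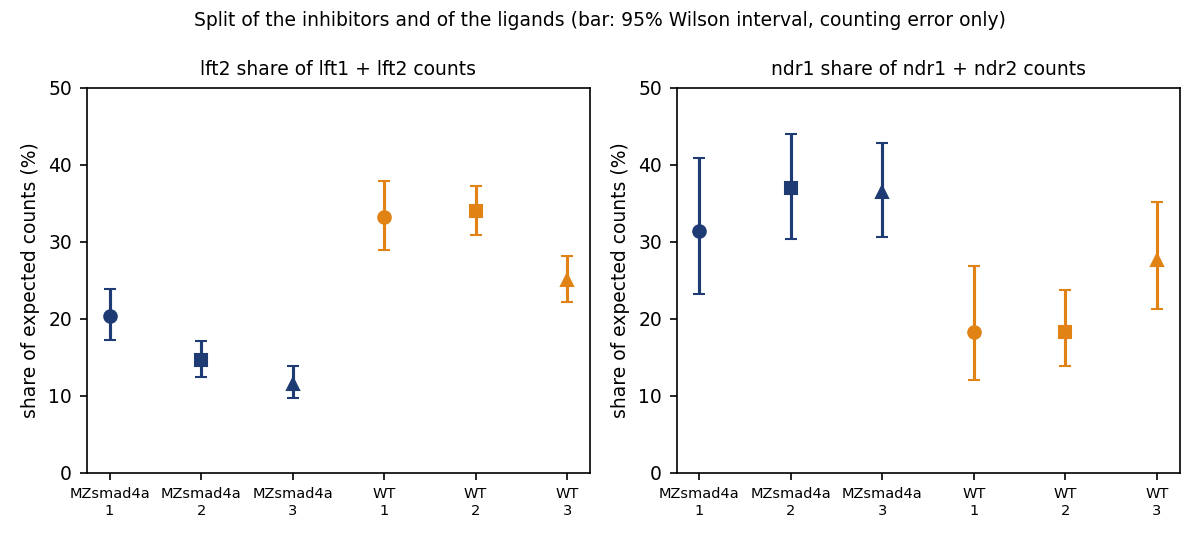
Share of lft2 in the counts of lft1 and lft2 (left) and share of ndr1 in the counts of ndr1 and ndr2 (right), in percent, for each library, with the 3 MZsmad4a libraries left of the 3 WT libraries. Vertical bars are 95% Wilson intervals, which cover counting error only. The share of lft2 runs between 11.6 and 20.3% in the mutants and between 25.0 and 34.0% in WT, and the share of ndr1 is above 31% in every mutant and below 28% in every WT library.

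Expressed as ratios of TPM, lft2 to lft1 was 0.270, 0.181 and 0.138 in MZsmad4a libraries, against 0.526, 0.544 and 0.353 in WT libraries. The difference of -1.30 on the log2 scale is a ratio 2.465 times lower in the mutants. The ratio of ndr1 to ndr2 was 0.430, 0.552 and 0.542 in MZsmad4a libraries, against 0.211, 0.211 and 0.361 in WT libraries, a log2 difference of 1.0. Neither ratio overlapped between genotypes, and both gave p = 0.1 in an exact two-sided permutation test, the smallest value that 3 against 3 libraries allow (adjusted p = 0.175 over the 7 ratios tested). No ratio could therefore pass 0.05 in this design.

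Of the 4 cross ratios between an individual ligand and an individual inhibitor, 2 did not overlap. The ratio of ndr1 to lft2 was 0.224, 0.432 and 0.649 in MZsmad4a libraries, against 0.111, 0.116 and 0.172 in WT libraries, a log2 difference of 1.61 and the widest of the 7 (exact permutation p = 0.1, adjusted p = 0.175). The ratio of ndr2 to lft1 was 0.141, 0.142 and 0.166 in MZsmad4a libraries, against 0.276, 0.299 and 0.168 in WT libraries, a log2 difference of -0.69 (exact permutation p = 0.1, adjusted p = 0.175). That separation was narrow, since MZsmad4a replicate 3 and WT replicate 3 had nearly the same ratio. The ratio of ndr1 to lft1 lay between 0.0605 and 0.0898 in MZsmad4a libraries and between 0.0583 and 0.0632 in WT libraries, with a log2 difference of 0.31 (exact permutation p = 0.3, adjusted p = 0.35). Its spread in WT was the smallest of the 7 (0.0607 ± 0.0024, mean and SD). Counting alone gives ndr1 a CV of 18.2% in WT, so so small a spread cannot be read as a trait of the ratio. The ratio of ndr2 to lft2 was 0.522, 0.783 and 1.197 in MZsmad4a libraries, against 0.525, 0.550 and 0.476 in WT libraries, a log2 difference of 0.61 (exact permutation p = 0.3, adjusted p = 0.35). The 7 ratios share the same 4 genes and are not independent of each other. No share over ratios of other genes is set beside them.

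**Figure D3:**
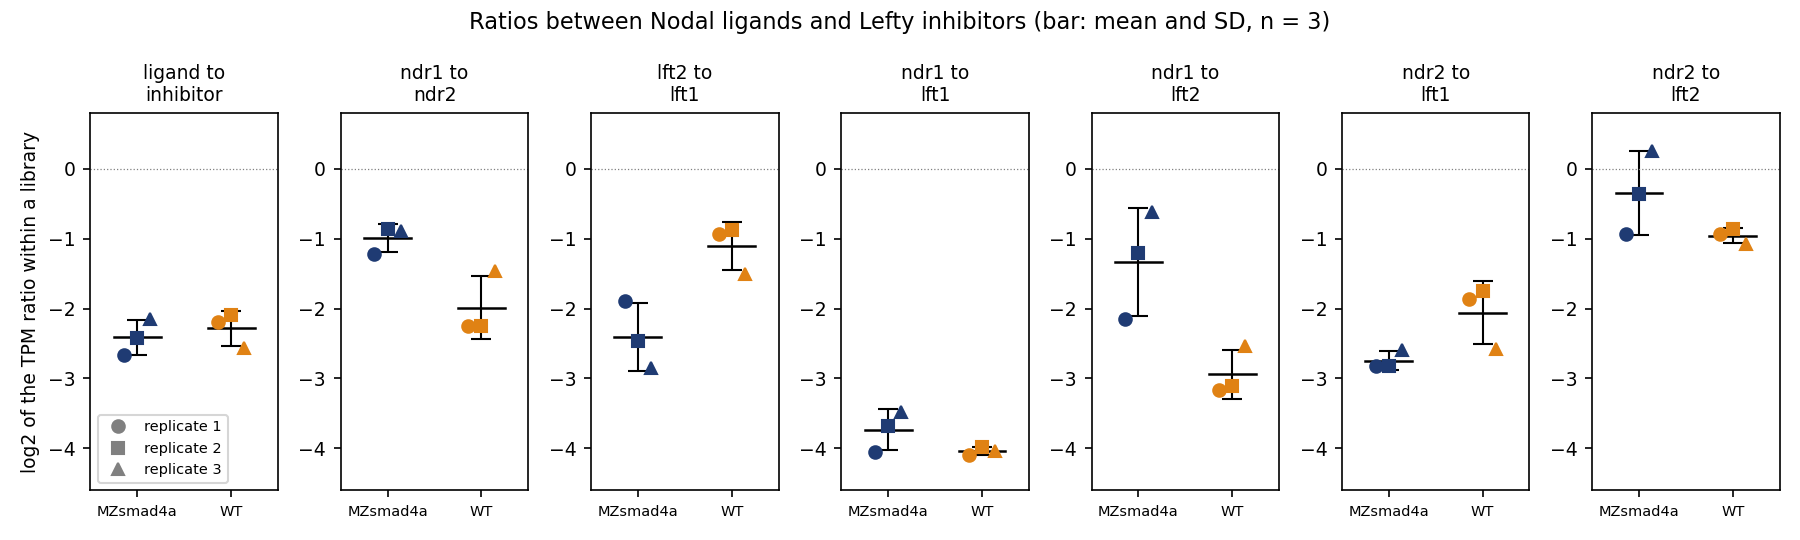
Log2 of the 7 TPM ratios within each library, on a common vertical axis, MZsmad4a left of WT. Symbols mark the replicate number, horizontal bars the mean and vertical bars the SD of 3 libraries, and the dotted line marks equal levels. The ratio of ligand to inhibitor overlaps between the genotypes (difference -0.13), while lft2 to lft1 (-1.30) and ndr1 to ndr2 (1.0) do not.

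The pattern of each gene over the 6 libraries was described by its log2 CPM centred on its own mean, and likeness by the root mean square difference between such patterns. The closest pair among the members was lft1 and ndr1, at 0.212, and 3.96% of the 9871 genes with a mean of at least 5 CPM were closer to lft1 than ndr1 was. Both were low in MZsmad4a replicate 1 and in WT replicates 1 and 2, and high in MZsmad4a replicates 2 and 3. In WT replicate 3 both lay between these. The paralogues were less alike: lft1 and lft2 differed by 0.729, with 94.4% of genes closer to lft1. For ndr1 and ndr2 the difference was 0.556, with 60.7% of genes closer to ndr1. The least alike pair was lft2 and ndr1, at 0.919 (95.1% of genes closer to lft2). Between them lay lft2 and ndr2 at 0.459 (19.7% closer to lft2) and lft1 and ndr2 at 0.433 (71.4% closer to lft1). The 3 genes closest to lft2 were lgals3b (0.0598), RAD54L (0.0996) and DROSHA (0.112), symbols here given as the gene name table has them. Closest to lft1 were CACNA1I (0.0803), SUPT7L (0.0871) and YIPF5 (0.0935), and closest to ndr2 were TIMM29 (0.0411), ier2a (0.0961) and FZD4 (0.107). Closest to ndr1 were si:dkeyp-46h3.8 (0.149), si:ch211-185a18.2 (0.158) and tmc6b (0.170). These likenesses rest on 6 libraries of 2 genotypes and differing depth, and are descriptions only. In the annotation of another assembly (GRCz12tu, RefSeq) the 4 genes lie on 4 distinct chromosomes and 0 of them on that of smad4a.

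**Figure D4:**
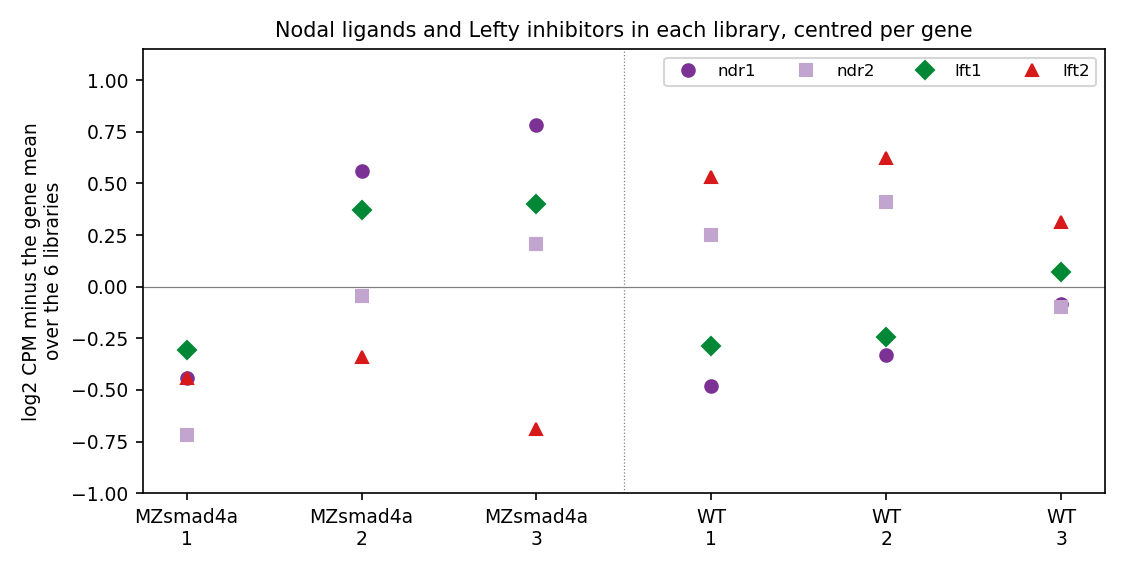
Log2 CPM of the 4 genes in each library minus the mean of that gene over the 6 libraries, with the 3 MZsmad4a libraries left of the dotted line and the 3 WT libraries right of it. ndr1 and lft1 lie close together in most libraries (root mean square difference 0.212), whereas lft2 is below 0 in every mutant and above 0 in every WT library.

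In the machinery that makes, receives and relays the Nodal signal, a single gene passed the test. Of 26 such genes asked for, on a list chosen with earlier results of these data known, 24 identifiers were found and 22 were tested. The left-sided ligand spaw (at most 4 counts in any library) and the Nodal antagonist dand5 (at most 2) were too low to test. In the edgeR test at an adjusted p of 0.01, 0 genes were higher and 1 was lower in MZsmad4a, beside 0.223% higher and 0.49% lower among all genes. DESeq2 called 0 higher and 2 lower, smad7 and mxtx2, beside its 1.77% higher and 1.92% lower among all genes. The median log2 fold change of the 22 genes was -0.06, beside -0.01 over all tested genes. The gene that fell was smad7, an inhibitory Smad that is itself induced by TGF-β family signals, with 10.4, 10.2 and 12.7 CPM in MZsmad4a embryos, against 32.0, 31.5 and 27.1 CPM in WT embryos. Its log2 fold change was -1.44 (SE 0.16, edgeR adjusted p = 0.00475). The call at 0.01 rests on all the libraries but WT replicate 3: leaving out any other library put the adjusted p of smad7 between 0.0135 and 0.0307, and a replicate block put it at 0.0259. The log2 fold change of smad7 in these runs lay between -1.55 and -1.38. Calls over all genes at 0.01 also fell, from 112 to 60 without MZsmad4a replicate 1 and to 29 with the block.

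Among machinery genes that did not pass, mxtx2 had the widest difference. This homeobox gene of the yolk syncytial layer, known to act upstream of ndr1 and ndr2 there, had 2, 6 and 9 counts in MZsmad4a libraries, against 15, 66 and 42 counts in WT libraries. The libraries did not overlap, and the log2 fold change of mxtx2 was -2.88 (SE 0.52, edgeR adjusted p = 0.0286, DESeq2 adjusted p = 0.000422). The ligand partner gdf3 (Vg1) had 55.2, 98.0 and 96.0 CPM in MZsmad4a embryos, against 65.9, 83.5 and 76.9 CPM in WT embryos, with a log2 fold change of 0.14 (edgeR adjusted p = 0.798). Its lowest library was MZsmad4a replicate 1, as for ndr2 and lft1.

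The log2 fold change of the co-receptor tdgf1 was -0.03, that of the type I receptor acvr1ba -0.32 and that of smad2 0.01, with edgeR adjusted p values of 0.940, 0.235 and 0.985. The DNA-binding partner foxh1 stood at -0.27 (edgeR adjusted p = 0.247), with every mutant library below every WT library. Of the 22 machinery genes tested, 5 were lower without overlap, foxh1 among them, and 1 was higher, drap1. Among all tested genes 11.9% were lower and 11.8% higher without overlap. The largest positive values belonged to 1 of the 2 genes listed as SMAD3 (ENSDARG00000036096, 0.39), the pluripotency factor nanog (0.38) and drap1 (0.32), a corepressor that binds Foxh1 in the mouse. These had edgeR adjusted p values of 0.589, 0.435 and 0.154. On the negative side came the other SMAD3 gene (ENSDARG00000010207, -0.70), which had at most 15 counts, and furina (-0.35), a proprotein convertase of the kind that cleaves TGF-β family precursors. Their edgeR adjusted p values were 0.407 and 0.420.

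Genes that respond to Nodal signalling at the margin and in the organizer had fitted changes in both directions. All 25 identifiers found for the 26 target genes asked for were tested, and 0 passed an edgeR adjusted p of 0.01, while 14 had an unadjusted p under 0.05 (5 higher and 9 lower), beside 8.68% of all tested genes higher and 8.81% lower. DESeq2 called 3 at 0.01, fscn1a lower and fgf3 and wnt11f2 higher, beside 3.69% of all genes it tested. The fitted change was positive for 9 and negative for 16, with a median of -0.28, beside -0.01 over all tested genes. The genotypes did not overlap for 4 genes higher and 9 lower in MZsmad4a, beside 11.8% and 11.9% of all genes. The target list was chosen with earlier results of these data known. These counts are therefore descriptions of the listed genes and no test of Nodal targets as a set.

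The largest positive values were those of secreted signalling proteins. The ligand gene fgf3 had 20.8, 28.4 and 28.4 CPM in MZsmad4a embryos, against 8.39, 14.2 and 14.2 CPM in WT embryos (log2 fold change 1.07, SE 0.24, edgeR adjusted p = 0.0577). The noncanonical Wnt gene wnt11f2 had 177, 181 and 185 CPM in MZsmad4a embryos, against 70.4, 111 and 114 CPM in WT embryos (log2 fold change 0.88, SE 0.17, edgeR adjusted p = 0.0356). The Wnt antagonist gene dkk1b followed at 0.70 (edgeR adjusted p = 0.104). All 3 were above the WT range in every mutant library.

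The largest negative values were those of nog1, tbx16 and mixl1. The BMP antagonist gene nog1 had 5.14, 6.68 and 3.68 CPM in MZsmad4a embryos, against 7.55, 10.7 and 13.6 CPM in WT embryos (log2 fold change -1.05, SE 0.29, edgeR adjusted p = 0.114). The mesodermal T-box gene tbx16 and the homeobox gene mixl1, a partner of Smad2, stood at -0.62 each, with edgeR adjusted p values of 0.0646 and 0.329. fscn1a, which encodes an actin-bundling protein, had the smallest p of the targets, with a log2 fold change of -0.49 (SE 0.09, edgeR adjusted p = 0.0320).

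**Figure D5:**
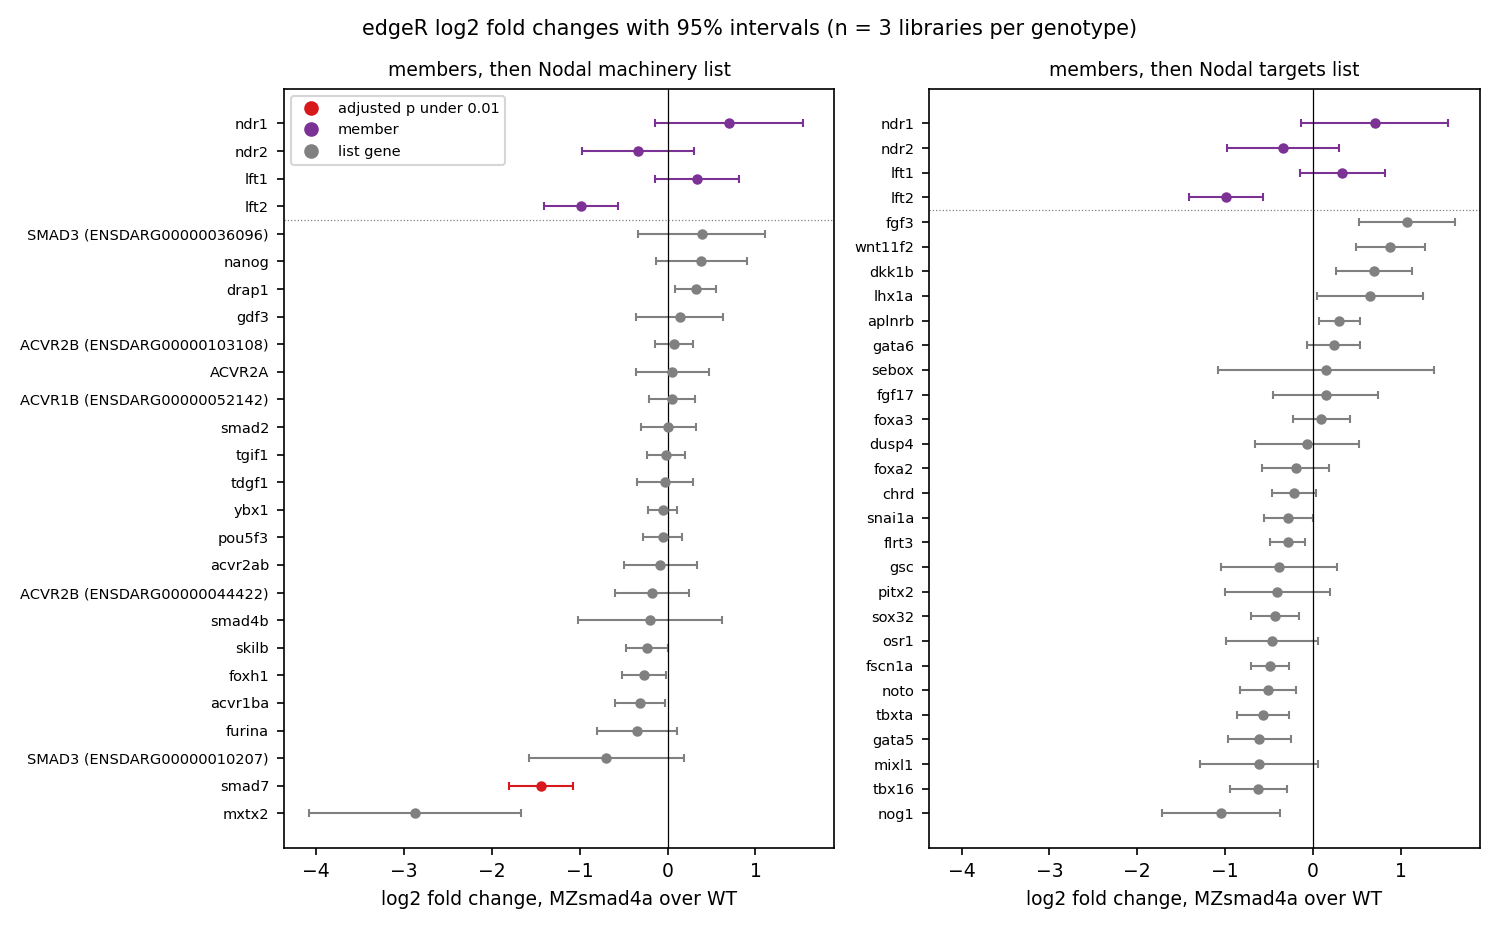
Log2 fold change (MZsmad4a over WT) with 95% intervals from the edgeR fit to 3 libraries per genotype, for the 4 members above the dotted line in both panels and below it for the tested genes of the Nodal machinery list (left, 22 genes) and target list (right, 25 genes). Red marks an adjusted p under 0.01, which smad7 alone has (0.00475). lft2 lies at -0.99, and the intervals of ndr1, ndr2 and lft1 span 0.

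The low values of MZsmad4a replicate 1 in ndr1, ndr2 and lft1 were shared by many Nodal targets. This library was the lowest of the 3 mutant ones for 17 of 25 targets, beside 36.4% of all tested genes. MZsmad4a replicate 2 was lowest for 3 targets and replicate 3 for 5. Among the machinery genes MZsmad4a replicate 1 was lowest for 10 of 22, as was MZsmad4a replicate 2. The organizer gene gsc had 14.1, 31.7 and 32.2 CPM in the MZsmad4a libraries, against 31.5, 35.5 and 35.0 CPM in WT libraries. The mix-type homeobox gene sebox had 11.5, 41.9 and 54.3 CPM in MZsmad4a libraries. It also varied in WT libraries, with 18.7, 49.6 and 28.4 CPM. The median log2 fold change of the targets was -0.16 without MZsmad4a replicate 1. lft2 did not follow it: MZsmad4a replicate 3, not replicate 1, was lowest.

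Markers of embryonic regions, not only of those in which the 4 genes are expressed, stood apart between the genotypes for some regions. Their part in the values above was not tested. These marker lists, too, were chosen with earlier results of these data known. Most margin, endoderm and axial markers are themselves in the target list: tbxta, tbx16, mixl1, sox32, foxa2, gsc, noto, chrd and foxa3. Those sums are therefore for the most part not a separate observation from the target values. Outside the target list were msgn1 (margin), sox17 (endoderm) and frzb (axial). In MZsmad4a they had 41.14 to 42.8, 1.212 to 3.755 and 13.85 to 18.44 CPM. In WT embryos they had 77.44 to 122.2, 10.4 to 12.92 and 30.24 to 34.62 CPM. Each was thus lower without overlap, as were 11.9% of all tested genes. Summed over the list, 4 margin mesoderm markers gave 683.4 to 953.7 CPM in MZsmad4a and 1158 to 1414 CPM in WT embryos, and 3 endoderm markers 131.0 to 154.4 CPM in MZsmad4a and 187.6 to 223.1 CPM in WT embryos, without overlap in either. Most of the endoderm sum was sox32 (111.4 to 132.9 CPM in MZsmad4a, 148.9 to 191.6 CPM in WT). Taken singly, foxa2 and mixl1 overlapped between the genotypes, and the other markers of both lists did not. The 5 ventral markers gave 224.6 to 262.8 CPM in MZsmad4a and 614.9 to 686.5 CPM in WT embryos, and 4 of them were lower at an edgeR adjusted p of 0.01, beside 0.49% of all tested genes. Sums overlapped for the 5 axial and organizer markers (534.2 to 624.8 CPM in MZsmad4a, 564.7 to 715.1 CPM in WT), the 3 ectoderm markers (353.5 to 423.2 CPM in MZsmad4a, 340.7 to 371.2 CPM in WT), the 5 primordial germ cell markers (267.2 to 325.8 CPM in MZsmad4a, 230.1 to 285.5 CPM in WT) and the 7 enveloping layer markers (9360 to 10840 CPM in MZsmad4a, 8471 to 9556 CPM in WT). The 3 yolk syncytial layer markers also overlapped (219.2 to 311.0 CPM in MZsmad4a, 211.5 to 312.9 CPM in WT), nearly all of it hnf4a. The other markers of that layer were lower in every mutant than in every WT library: slc40a1 had 1.904, 1.878 and 1.577 CPM in MZsmad4a, against 2.735, 2.768 and 2.456 CPM in WT embryos, and mxtx2, described above, was within the floor of 3 counts in MZsmad4a replicate 1. Within the axial, ectoderm, germ cell and enveloping layer lists, some single markers did not overlap although the sums did. Lower in every mutant library were noto, frzb and tdrd7a (6.751 to 15.61 CPM in MZsmad4a, 16.13 to 20.74 CPM in WT). Higher in every mutant library were cyt1, nanos3 and sox2 (104.7 to 116.9 CPM in MZsmad4a, 79.42 to 87.34 CPM in WT). The rest of these lists overlapped, and 23.6% of all tested genes did not overlap. No marker was at 0 in all libraries.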

How the data were processed

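The authors sequenced poly(A) RNA libraries (paired-end), trimmed reads with cutadapt, aligned them with STAR to GRCz11 and its Ensembl annotation and quantified genes with RSEM. They deposited, for each library, an expected count and a TPM value per gene. The deposited gene and effective lengths (other values) served only for ratios of counts per length. Of the expected counts, 91.0 to 92.6% per library were whole (within 0.005), and all 24 of the 24 values of the 4 genes. Each gene has 1 annotated transcript.

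Expected counts were rounded and tested with edgeR 4.0.16 (filterByExpr, TMM, quasi-likelihood) in R 4.3.3, genotype alone in the model, with Benjamini-Hochberg adjustment over 15720 genes and a threshold of 0.01. CPM values are TMM-scaled, with a prior count of 2 on the log2 scale. The TMM factors were 0.956 to 0.976 in MZsmad4a and 1.01 to 1.08 in WT libraries. The deposited TPM has no such factor, so TPM levels set between genotypes carry this offset, while ratios within a library do not. Ratios used deposited TPM. DESeq2 1.42.0, limma 3.58.1 on log2(TPM + 1), other scalings and filters, and leaving out each library were alternatives. Of these, DESeq2 was the tool the study used. The edgeR script was tested on simulated data.

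The members and lists were chosen with earlier results of these data known. Named in full were the 4 members, smad4a, list genes past 0.01, the 3 largest changes per direction in each list, and the 3 genes most like each member. gdf3, tdgf1, acvr1ba, smad2, foxh1, spaw, dand5, fscn1a, gsc, sebox and slc40a1 were named after their values were seen. So were the markers msgn1, sox17, frzb, noto, tdrd7a, cyt1, nanos3 and sox2. For 3 list genes (eomesa, skia, fgf8a) no identifier was resolved, and they are not in the list counts. A gene listed as FGF8 (ENSDARG00000003399) was among all tested genes, with a log2 fold change of 0.60 (edgeR adjusted p = 0.0669). Whether it is fgf8a was not resolved, and the target counts leave it out. Strandedness of the counting is not given in the sources used here, so overlapping antisense transcripts cannot be told apart. No sequences were used here, and positions only as the chromosome each gene has in GRCz12tu.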

Additional observations from a re-analysis of the deposited data

How the results depend on the processing

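Among the 13 results, no fold change and no ratio turned its direction under any alternative run. The counts of list genes called have no direction. Of 160 alternative values, 147 kept their side of the threshold or, for a count, stayed the same. For the ratios that side was fixed in advance, since their permutation p cannot fall below 0.1. Their part of that number therefore says nothing about stability. lft2 passed with DESeq2 (log2 fold change -0.98, adjusted p = 0.000484) and, at -0.99, under a threshold of 0.05 in edgeR (adjusted p = 0.0299). Its edgeR adjusted p was 0.0216 with library size as the only scaling, which moved the median of all genes by -0.11. The limma test on log2(TPM + 1) gave lft2 an adjusted p of 0.0233. Machinery genes called numbered 2 with DESeq2 and 2 at a threshold of 0.05, against 1, and target genes called 3 with DESeq2, 1 without a filter on low counts (wnt11f2) and 2 at 0.05, against 0. Over all genes, 112 passed 0.01 in edgeR and 658 in DESeq2. Leaving out each library in turn gave log2 fold changes of 0.45 to 0.99 for ndr1, -0.55 to -0.11 for ndr2, 0.22 to 0.53 for lft1 and -1.08 to -0.89 for lft2 (edgeR adjusted p 0.0465 to 0.108), 0 to 1 machinery genes called and 0 to 0 target genes. Log2 differences of the ratios then ran from -0.27 to -0.01 for ligand to inhibitor, 0.87 to 1.26 for ndr1 to ndr2, -1.56 to -1.08 for lft2 to lft1, 0.18 to 0.47 for ndr1 to lft1, 1.26 to 2.02 for ndr1 to lft2, -0.95 to -0.53 for ndr2 to lft1 and 0.31 to 0.91 for ndr2 to lft2.

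Libraries with the same replicate number correlated at 0.108, -0.0319 and 0.14 in their deviations from the group means, and MZsmad4a replicate 2 correlated more with WT replicate 1 (0.0816), so the numbers were not taken as pairs. For replicates 1 and 3, however, the same-numbered library was the one each correlated with most. Deviations within groups of 3 libraries cannot settle whether batches were shared. The study describes its embryos as batches without tying them to these numbers. With a replicate block, lft2 stood at -0.99 (edgeR adjusted p = 0.0526), ndr1 at 0.66, ndr2 at -0.37 and lft1 at 0.31, 29 genes passed 0.01 over all genes, and 0 machinery and 0 target genes were called. Depth limits ndr1 most, with 19 to 85 counts per library.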

Other observations

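The spread among libraries of a genotype was looked at after the values were seen. The SD of log2 CPM was larger in MZsmad4a than in WT for 4 of 4 members, beside 48.3% of all tested genes. For ndr1 it was 0.652 in MZsmad4a and 0.202 in WT, for ndr2 0.479 in MZsmad4a and 0.259 in WT, and for lft1 0.400 in MZsmad4a and 0.195 in WT. These MZsmad4a values were above those of 83.3, 84.1 and 88.8% of genes within 0.5 log2 units of the same mean level. lft2 had 0.180 in MZsmad4a and 0.158 in WT, and its MZsmad4a value was above that of 36.2% of such genes. Counting alone gives a CV of 13.8% in MZsmad4a and 18.2% in WT for ndr1, and of 4.01% in MZsmad4a and 4.83% in WT for lft1, where the CV of TPM was 40.6% in MZsmad4a and 13.4% in WT for ndr1, and 26.0% in MZsmad4a and 13.5% in WT for lft1. An SD over 3 libraries is itself imprecise, the difference in spread was not tested, and for ndr1, ndr2 and lft1 it goes with the low values of MZsmad4a replicate 1.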
